A study of Mus musculus with 6 samples.

Results

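Jun binding sites that stand first in a deposited ChIP-seq peak list from newborn mouse rib chondrocytes are described here by their width, their spacing and the peaks around them. They are the autosomal peaks among rows 1 to 2000 of the list in its deposited order, 1996 of 99162 peaks in all. The other 4 of these 2000 rows lie on the X chromosome and none lies on Y. They are set beside the 95804 autosomal peaks of the later rows. What the order stands for is not stated, so an early place is a place in the list and not a measured strength. The peaks were chosen by their place in the list alone, and every comparison with later rows is a description with no test.

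Jun is a subunit of AP-1, a dimeric transcription factor formed by Jun proteins with one another or with Fos or ATF proteins. AP-1 binds short DNA elements, often in enhancers, and is known for rapid responses to growth and stress signals. In growth cartilage, AP-1 factors are known to act in chondrocytes that enlarge into hypertrophic cells, the last stage before bone replaces cartilage. Chondrocyte identity itself depends on Sox9, and the study asked how AP-1 and Sox9 meet on chondrocyte DNA.

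The Jun ChIP library came from enzyme-digested rib chondrocytes of untreated wild-type ICR mice at postnatal day 1, cross-linked directly after isolation, and 1 input DNA library was made from the same kind of cells. The number of animals behind it is not stated in these sources. The series also holds 4 RNA-seq libraries of sorted Col10a1mCherry rib chondrocytes from Swiss Webster mice, 2 of them taken at P1, 1 at P3 and 1 before birth (E18.5), which enter no result below. The peak list gives a chromosome, a start and an end on build mm9 for each peak, and no score, read depth or gene. It comes from 1 Jun library, so there is no replicate check, and peaks of 1 library are not replicates. Intervals given below are exact 95% binomial intervals. They cover counting error only, and the grouping of peaks makes them too narrow. Positions count from 1, and distances run between peak centres.

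The first peaks of the list were short intervals from many chromosomes. Row 1 was the 105 bp peak on chromosome 1 from 164500615 to 164500719, with its nearest other peak 1843 bp away at row 71361. Rows 2, 3 and 4 measured 100, 96 and 101 bp and lay on chromosome 7 (129276463 to 129276562), chromosome 2 (91570234 to 91570329) and chromosome 13 (31065914 to 31066014). Each of these 3 stood alone within 10 kb, with the nearest peak 26.0, 19.3 and 15.9 kb away. Row 5, on chromosome 17 from 66310975 to 66311124, measured 150 bp and overlapped the 376 bp peak of row 15, whose centre lay 150 bp away. The first 5 rows thus included solitary peaks, a peak with a late-listed neighbour and a peak that overlapped another early one. The list is not sorted by position: only 5.60% of rows 1 to 2000 were followed by a row on the same chromosome, against 7.84% of later rows.

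As deposited, the early-listed peaks were narrow and alike in width. Their median width was 104 bp (95% interval of the median 104 to 106), with the central 50% between 92.75 and 120 bp. Later autosomal rows had a median of 114 bp and a central 50% between 88 and 152 bp, so they were more spread in both directions. With peaks within 1000 bp of each other merged, the order turned: regions with an early peak had a median of 176 bp and the others 126 bp. A merged region counted as early if any of its peaks was early. Regions of more peaks, which are wider, were thus more readily early by this rule, and the turn is not a finding about single peaks. Widths of at least 80 and under 130 bp made up 71.1% of the early peaks (1420 of 1996, interval 69.1 to 73.1%) and 43.8% of the later ones. Peaks of 200 bp or more made up 3.81% of the early peaks (76, interval 3.01 to 4.74%) and 14.3% of the later ones. Peaks under 50 bp made up 3.66% (73, interval 2.88 to 4.58%) and 6.36%. Chromatin had been sheared to between 100 and 600 bp, so many of these intervals were as short as the shortest fragments or shorter.

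**Figure D1:**
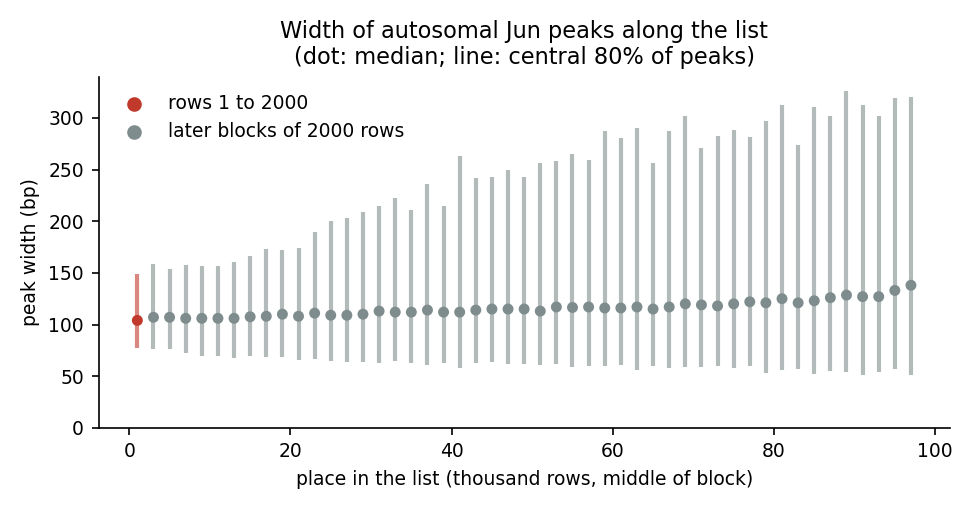
Peak width in bp for autosomal peaks in the 49 full blocks of 2000 rows, plotted against the middle of each block in the list. Dots are medians and lines run from the 10th to the 90th percentile. Rows 1 to 2000 (red) have the lowest median, 104 bp, and the lowest 90th percentile, 149 bp, of all 49 blocks.

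Set beside the other 48 full blocks of 2000 consecutive rows, rows 1 to 2000 stood at an end of most width measures. All 48 later blocks had a higher median width, from 106 to 138 bp, and a higher 90th percentile, from 154 to 326 bp against 149 bp. The 10th percentile of 77 bp was above that of every later block, where it ran from 51 to 76 bp. The share of peaks of 200 bp or more was lower than in all 48, where it ran from 4.07 to 25.8%. The share under 50 bp was not the lowest, since 3 later blocks had less. Within rows 1 to 2000 the median width did not move with place: it was 104, 106, 104.5 and 104 bp in successive parts of 500 rows.

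The 10 widest early-listed peaks measured 426 to 488 bp, well short of the 874 bp of the widest peak of the later rows. The widest, 488 bp on chromosome 3 from 27506494 to 27506981 (row 284), had 51 other peaks within 50 kb. The 482 bp peak on chromosome 7 from 130490142 to 130490623 (row 1376) had 33. The 477 bp peak on chromosome 6 from 134471887 to 134472363 stood earliest of these 10, at row 60, and had 13. The 473 bp peak on chromosome 16 from 93535492 to 93535964 (row 1663) and the 467 bp peak on chromosome 10 from 59040923 to 59041389 (row 537) had 8 and 27. The median early-listed peak had 12. The sixth and the seventh widest, of 465 and 452 bp, both lay on chromosome 19, from 5841180 and from 5844299, in the tile described further on. The remaining 3 lay on chromosomes 7 (19887296 to 19887746, 451 bp), 2 (118269971 to 118270399, 429 bp) and 6 (144801905 to 144802330, 426 bp). The narrowest early peak was an interval of 5 bp on chromosome 19 from 5838760 to 5838764, at row 129. Such an interval is shorter than an AP-1 element.

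Early-listed peaks came from all 19 autosomes, roughly in step with each chromosome's number of peaks. Over all autosomes 2.04 of 100 peaks were early-listed. The share ran from 1.58 per 100 on chromosome 14 (61 of 3851, interval 1.21 to 2.03) to 2.54 on chromosome 19 (78 of 3072, interval 2.01 to 3.16). The intervals of these end points overlapped slightly, and those of chromosomes between them overlapped widely, which is a description and no test. Chromosome 19 owed its place to 1 tile of 100 kb: without that tile it had 59 early peaks among 3020, or 1.95 per 100. Per length, chromosomes 19 and 11 held the most, 1.34 and 1.21 per Mb of the span between their first and last peaks, and chromosome 14 the least, 0.527. On X, 4 of 1358 peaks were early-listed, 0.295 per 100 (interval 0.0803 to 0.752), fewer than in each of the other 48 full blocks, which held 8 to 62 X rows.

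Early-listed peaks sat in crowded parts of the list. The nearest other peak of the full list was a median of 1074 bp away (interval 994 to 1176), against 1764 bp for later rows. A neighbour within 10 kb was found for 90.0% (1796 of 1996, interval 88.6 to 91.3%), against 80.7% of later rows. Only 200 (10.0%) had none within 10 kb, against 19.3%. Within 50 kb an early peak had a median of 12 other peaks, against 9, and a mean of 15.3, against 11.4. At 500 kb the medians were 81 and 72, so the difference was smaller in proportion over wider surroundings. In all 48 later full blocks the share with a neighbour within 10 kb was lower, from 78.1 to 88.4%, and the mean number within 50 kb was lower, from 10.4 to 13.5. The second block, rows 2001 to 4000, came closest on both measures. Within rows 1 to 2000 the share was 91.4, 91.6, 90.2 and 86.8% in successive parts of 500 rows. The last part was thus below the 88.4% of rows 2001 to 4000. Its median distance to the nearest peak was 1350 bp, against 1361.5 bp in rows 2001 to 4000, and both had a median of 11 peaks within 50 kb.

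The same held for groups formed by chaining all autosomal peaks with no more than 10 kb from one centre to the next. Of 37573 such groups, 1664 held an early-listed peak. The share of peaks that were early-listed was 1.07 per 100 among lone peaks (200 of 18660), 1.67 in groups of 2 to 4, 2.28 in groups of 5 to 9, 3.10 in groups of 10 to 19 and 3.83 in groups of 20 or more (295 of 7702). The intervals of successive classes did not overlap, except for the 2 fullest classes, whose intervals of 2.80 to 3.43 and 3.41 to 4.28 met. These intervals treat peaks as independent, which neighbours in a group are not, so their overlap or separation is no test. Of the 242 groups of 20 or more peaks, 153 (63.2%) held an early peak. Of the 14141 groups of 2 to 4 peaks, 574 (4.06%) did. The chance to hold an early peak rises with the number of peaks in a group, and no expected share was computed. These 2 shares are therefore not read as a preference for large groups.

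Some early-listed peaks nevertheless stood far from any other. The most isolated, 106 bp on chromosome 10 from 105278418 to 105278523, was also one of the earliest, at row 26, and its nearest peak of the full list was 266 kb away. The peak on chromosome 8 from 39820414 to 39820567 (154 bp, row 1090) had its nearest at 248 kb and the peak on chromosome 6 from 43616151 to 43616247 (97 bp, row 285) at 232 kb. Only 4 of the 1996 had no other peak within 100 kb. Another peak was found within that distance for 99.8% of early peaks, against 98.9% of later rows. At the other end, the peak on chromosome 1 from 92731500 to 92731666 (167 bp, row 180) and the one on chromosome 4 from 62890170 to 62890255 (86 bp, row 373) each had 79 other peaks within 50 kb.

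The distances at which other peaks lay around the early-listed peaks had 2 separate ranges. The first was very short: at 50 to 100 bp there were 0.471 other peaks per kb around early peaks (94 peak-to-peak distances) and 0.0386 around later ones, a ratio of 12.2. Under 50 bp the densities were 0.140 and 0.0132, and at 100 to 150 bp 0.160 and 0.0378. From 250 to 500 bp the order was the other way round. At 300 to 350 bp there were 0.210 per kb around early peaks and 0.382 around later ones, a ratio of 0.551. Beyond 500 bp early peaks were again the more crowded, with 0.426 against 0.356 per kb at 500 to 600 bp and 0.363 against 0.254 at 900 to 1000 bp. Around later peaks the density was highest at 350 to 400 bp, with 0.418 per kb.

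**Figure D2:**
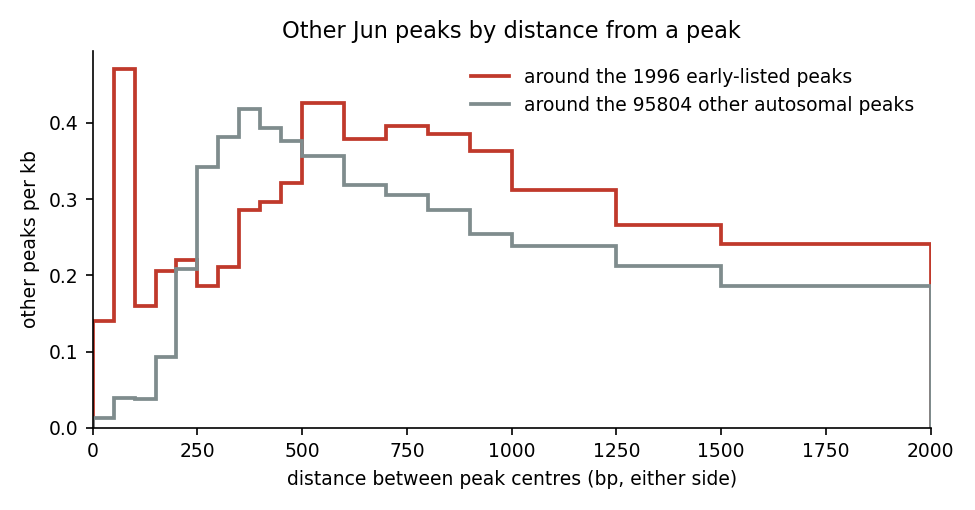
Other autosomal Jun peaks per kb by distance between centres in bp, on both sides, around the 1996 early-listed peaks (red) and around the 95804 later ones (grey). The red line stands at 0.471 per kb at 50 to 100 bp, falls under the grey line between 250 and 500 bp, and lies above it from 500 bp on.

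Pairs of peaks with nearly coincident centres were most frequent at the start of the list. Another peak lay at most 150 bp away for 142 early-listed peaks, 7.11% (interval 6.03 to 8.33%), against 0.885% of later rows. With overlapping peaks merged into 1, and a merged region early if any of its peaks was, the shares were 1.59% and 0.225%. Unmerged, the share was 4.77% in rows 2001 to 4000, and it was lower than in rows 1 to 2000 in all 48 later full blocks, down to 0%. Within rows 1 to 2000 it was 9.62, 8.63, 6.60 and 3.61% in successive parts of 500 rows. Another peak overlapped 6.86% of the early peaks (137) and 2.81% of later ones. The list thus gives some early sites as 2 intervals that share bases.

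**Figure D3:**
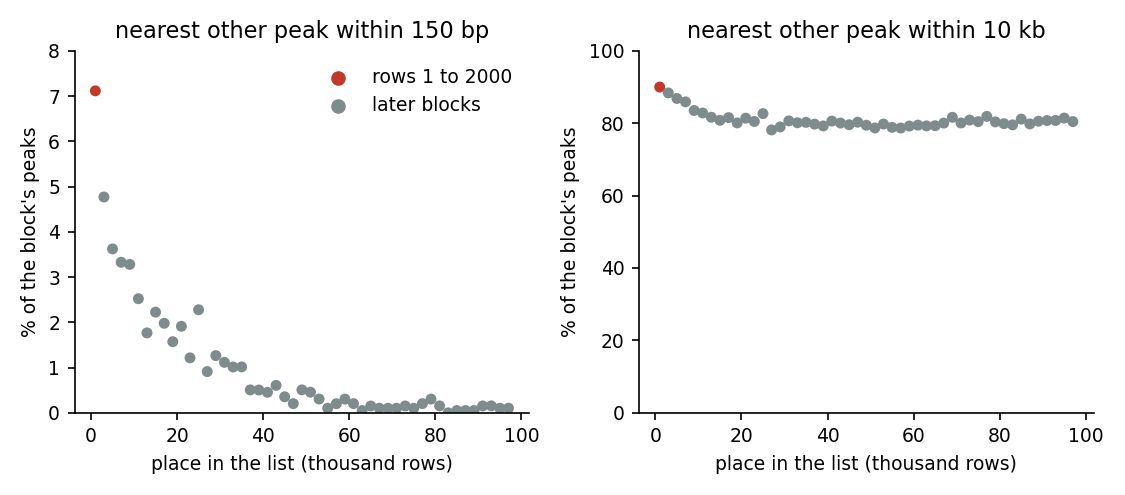
Percentage of the autosomal peaks of each full block of 2000 rows whose nearest other peak of the list lies within 150 bp (left) or within 10 kb (right), by place in the list (unit: 1000 rows). Rows 1 to 2000 (red) stand highest in both panels, at 7.11% and 90.0%.

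The partner in such a close pair usually stood near the start of the list too. Counting neighbouring pairs under 150 bp apart, 104 of 498 included an early-listed peak, and in 43 of the 104 both peaks were early-listed. In the 104 pairs, the later-listed peak had a median place of row 2495, and in 90.4% it was in the first 10% of the list. By the block shares above, peaks in close pairs stood early in the list in general, and the 90.4% is not set beside a baseline of such pairs. For pairs 300 to 500 bp apart the picture was different: of 206 that included an early peak, 6 had both early, and the later-listed peak had a median place of row 49521. At 500 to 1000 bp the counts were 24 of 625 and the median place was row 45091. Across all 498 close pairs, the earlier and the later place of a pair had a Spearman's rho of 0.91, against 0.51 for the 7431 pairs at 300 to 500 bp. These describe pairs that share 1 library. Each pair is ordered by the places compared, and this alone gives a positive rho for unrelated places. The 0.51 is therefore not read as a link in place, and rho was 0.52 at 500 to 1000 bp and at 1000 to 5000 bp. The 0.91 is raised by the same ordering, and its excess over these values was not tested.

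The closest early pairs lay 31 to 44 bp apart. On chromosome 5 the 60 bp peak from 138113215 to 138113274 (row 554) and the 84 bp peak from 138113234 to 138113317 (row 467) had centres 31 bp apart. A second pair on chromosome 5, of 130 and 135 bp, spanned 143559419 to 143559582 at rows 1043 and 1104, and a pair on chromosome 11, of 69 and 88 bp, spanned 51913243 to 51913354 at rows 661 and 294. On chromosome 3 the peaks from 131153890 to 131153934 and from 131153913 to 131153979 were consecutive rows, 218 and 219, with centres 34 bp apart. They belong to a run of 3 early-listed peaks within 168 bp that starts at 131153812. Another run of 3, within 175 bp, lay on chromosome 5 from 31879146 to 31879320. The 104 close pairs with an early peak were spread over 19 chromosomes, at most 12 on one, and had a median distance of 77.3 bp, and in 77 of them the intervals overlapped.

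A larger number of early-listed peaks had a neighbour of another kind. For 520 early peaks (26.1%, interval 24.1 to 28.0%) the nearest peak lay at least 500 and under 1000 bp away, against 18.3% of later rows. In 34 of these 520 cases the nearest peak was early-listed too. The nearest peak of the 520 had a median place of row 43720, with a central 50% between rows 17697 and 70104, and a median width of 115 bp, against 104.5 bp for the early peaks themselves. Over all 1996, the nearest peak was wider than the early peak in 56.0% of cases, against 50.1% for later rows. It was itself among rows 1 to 2000 in 10.1% of cases, against 2.03% for later rows. For the block of rows that follows directly, this share was 5.27%, and 2.04% of all autosomal peaks were early-listed. The 10.1% counts early peaks next to early peaks. It therefore restates how close they lie to one another and is no separate result.

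Among themselves the early-listed peaks were mostly far apart, with a minority in tight company. The median distance from an early peak to the nearest other early peak was 107.9 kb, with a central 50% between 18.9 and 432 kb. Another early peak lay within 10 kb of 427 of them, 21.4% (interval 19.6 to 23.3%), within 2 kb of 218 (10.9%) and within 50 kb of 730 (36.6%). With peaks within 1000 bp merged, 12.9% had another early region within 10 kb. Measured unmerged within each later full block, the share within 10 kb ran from 4.05 to 11.2% and the median distance from 163 to 242 kb, so rows 1 to 2000 lay closer together than the rows of any of those 48 blocks. The early peak farthest from another, on chromosome 10 from 3232594 to 3232695 (row 1248), was 9.34 Mb from its nearest early peak, although 13 later-listed peaks lay within 50 kb of it. Chaining early peaks within 10 kb of each other left 1569 on their own and gave 152 pairs, 23 runs of 3, 8 of 4, 1 of 5 and 1 of 17. The run of 5 spanned 8.88 kb on chromosome 16 (92391664 to 92400543), and only 1 later-listed peak lay between its members.

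The 1996 early-listed peaks occupied 1572 of the 15684 autosomal tiles of 100 kb that hold a Jun peak (10.0%). Of these tiles 1274 held 1 early peak, 219 held 2 and 79 held 3 or more. Each later full block had 6 to 48 tiles with 3 or more of its own peaks, with a median of 22. The 79 tiles held 284 early peaks (14.2%) and were found on all 19 autosomes, from 1 on chromosome 18 to 9 on chromosome 1. They were rich in peaks of the full list, with a median of 23 and a range from 9 to 80. Of the 79, 49 had 20 or more peaks, against 544 of all 15684 tiles with a peak. Early peaks were 13.9% of their 2044 peaks, against 2.04% of all autosomal peaks. Choosing tiles by 3 or more early peaks in itself raises both their density and their early share.

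Tile density and early place went together over the whole range of tiles. Of 100 peaks, 0.597 were early-listed among peaks alone in their tile (interval 0.348 to 0.955), 1.24 in tiles of 2 to 4 peaks, 1.51 in tiles of 5 to 9, 2.26 in tiles of 10 to 19, 3.56 in tiles of 20 to 49 and 4.87 in tiles of 50 or more (60 of 1233, interval 3.73 to 6.22). Still, 234 of the 544 tiles with 20 or more peaks held no early peak. The densest tile of the list, with 90 peaks on chromosome 4 from 62900001 to 63000000, held 1, and the tile with 66 peaks on chromosome 15 from 27400001 to 27500000 held none. The tiles with 80 peaks on chromosome 7 (124600001 to 124700000) and on chromosome 1 (92600001 to 92700000) held 1 and 3. The other 310 of the 544 (57.0%) held an early peak. More peaks in a tile raise this share by themselves, and no expected share was computed.

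**Figure D4:**
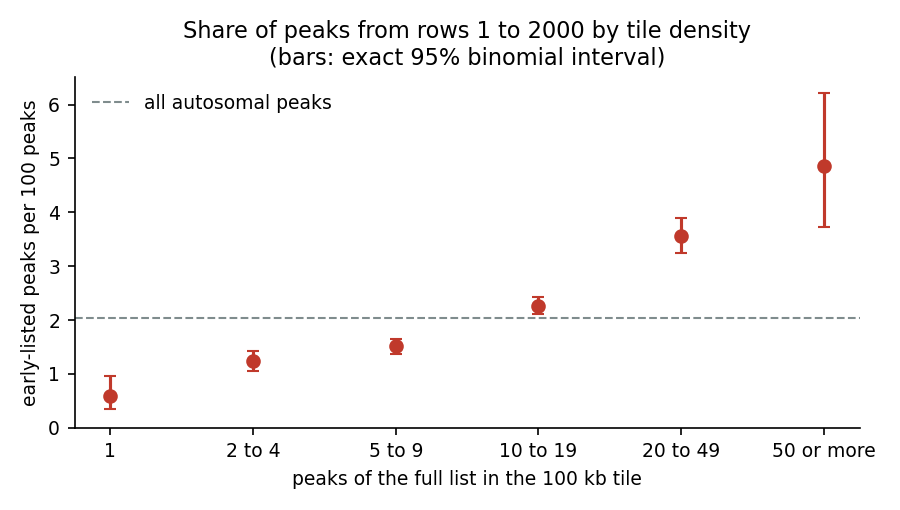
Early-listed peaks per 100 autosomal peaks, by the number of peaks of the full list in the 100 kb tile. Bars are exact 95% binomial intervals and the dashed line is the value of all autosomal peaks, 2.04. The share goes from 0.597 for lone peaks to 4.87 in tiles of 50 or more.

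After the chromosome 19 tile described below, the tile with the most early-listed peaks lay on chromosome 10 from 76100001 to 76200000, with 6 of 52 peaks. Their widths ran from 12 to 129 bp, and the first stood at row 271. Then came 7 tiles with 5 early peaks each. On chromosome 4 the tile from 62800001 to 62900000 held 5 among 53 peaks, all of 86 to 107 bp, and it adjoins the densest tile of the list. On chromosome 2 the tile from 164200001 to 164300000 held 5 among 50, and on chromosome 19 the one from 9000001 to 9100000 held 5 among 36 within 14.4 kb. The tile on chromosome 13 from 56700001 to 56800000 held 5 among 35, those on chromosome 6 (135300001 to 135400000) and chromosome 12 (88100001 to 88200000) each 5 among 28, and that on chromosome 5 (118900001 to 119000000) 5 among 21. On chromosome 6 the 5 early peaks had a median gap of 372 bp and widths up to 417 bp. On chromosome 12 the median gap was 2633 bp and no early peak was wider than 109 bp. Of the tiles with 4, that with the most peaks lay on chromosome 1 from 92700001 to 92800000, with 4 among 63. In no tile with 3 or more early peaks were most peaks early-listed. After the chromosome 19 tile the highest shares were on chromosome 13, where the tiles from 15800001 and from 58700001 each had 3 among 9 peaks (33.3%), and the 3 of the second lay within 0.898 kb.

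The tile on chromosome 19 from 5800001 to 5900000 held 19 early-listed peaks among 52, or 36.5%. No later full block put more than 8 of its peaks in 1 tile, and the next early count was 6. Its early peaks ran over 75.5 kb but were concentrated: from 5833396 to 5850385, 17.0 kb, 13 of 16 peaks were early-listed. The 7 earliest of the tile were rows 61, 66, 87, 104, 112, 129 and 144, all between 5836947 and 5841782. Row 61 was the 148 bp peak from 5839420 to 5839567, and row 66 the 110 bp peak from 5839896 to 5840005, 457 bp away. Row 112, the 465 bp peak from 5841180 to 5841644, overlapped row 87, the 137 bp peak from 5841551 to 5841687, and row 104 lay next to it from 5841695 to 5841782. Thus 7 of the first 150 rows of the list came from under 5 kb of chromosome 19.

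**Figure D5:**
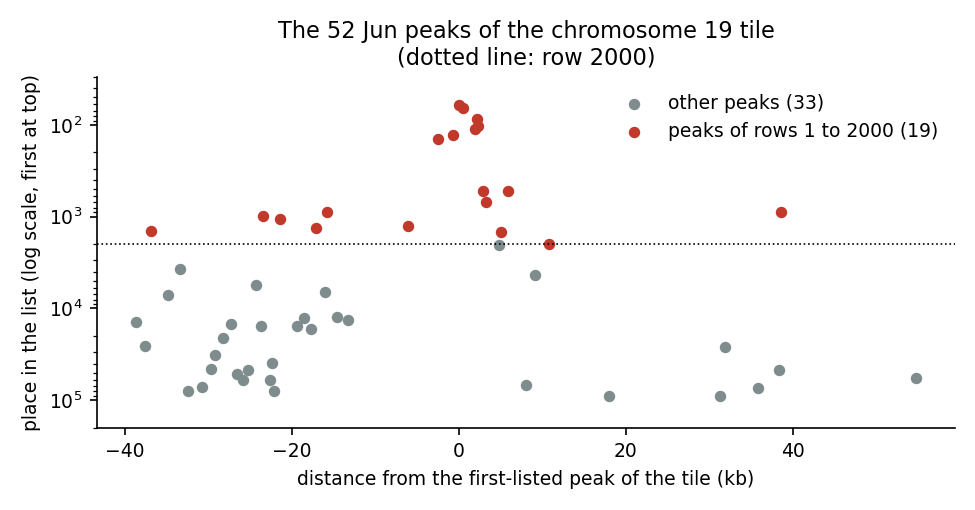
The 52 Jun peaks of the chromosome 19 tile by distance in kb from the peak at row 61 and by place in the list (log axis, first row at the top). The 19 early-listed peaks (red) lie above the dotted line at row 2000, and the 7 earliest lie within 3 kb of row 61.

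Within this tile the early-listed peaks had a median width of 103 bp (range 5 to 465) and the other 33 a median of 113 bp (range 20 to 651), with wide overlap. The 33 others had a median place of row 26168. Away from the dense stretch, early peaks stood singly among later ones, as at 5802580 to 5802700 (row 1443) and at 5878041 to 5878076 (36 bp, row 886). Chained within 10 kb of each other, 17 of the early peaks formed the longest run of the 1996, 34.3 kb from 5816055 to 5850385 with 29 peaks in all. The tile held under 1% of the early peaks, and the shares above hardly moved without it: 7.08% then had another peak within 150 bp and 89.9% had one within 10 kb.

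Width and neighbours in the full list were alike on both sides of row 2000. The last 10 rows inside had widths of 78 to 133 bp with a median of 104 bp, and the first 10 rows outside had 87 to 191 bp with a median of 106.5 bp. A neighbour within 10 kb was found for 8 of the 10 inside and 9 of the 10 outside. Over 100 rows on each side, the median widths were 105 and 108.5 bp, the median distances to the nearest peak 1514 and 1442 bp, and the median number of peaks within 50 kb was 11 on both sides. Spacing of rows among themselves was not measured at this edge, only by block. In rows 2001 to 4000, 11.2% of peaks had another of the block within 10 kb, against 21.4% in rows 1 to 2000, and 39 tiles held 3 or more, against 79. Crowding did not go 1 way along the list: the median distance to the nearest peak was 1074 bp in rows 1 to 2000, 2258 bp in the block from row 48001 and 1401 bp in the block from row 76001. Tiles with 3 or more peaks of the same block numbered 6 in the block from row 58001 and 48 in the block from row 88001.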

How the data were processed

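The authors deposited 1 list of Jun peaks with 3 columns: chromosome, start and end in bp, an unscored interval per peak, on build mm9 per the submitters' processing notes. Aligner, peak caller, use of the input and meaning of the row order are not stated in these sources, and depth is unknown. The name of the list carries the label FDR1, and no further statement of a threshold is given. The list names no sample and was assigned to the 1 Jun library of the series. Rows 1 to 2000 were taken in file order and X rows set aside. Neighbours, 100 kb tiles counted from base 1, groups and blocks of 2000 rows were computed with Python 3.11.15, pandas 2.3.3, numpy 2.4.6 and scipy 1.17.1, tested on simulated data with known answers, and plotted with matplotlib 3.10.9. The share of each chromosome was computed over autosomal peaks. Intervals of medians come from binomial order statistics. Named regions are the first 5 rows, the 10 widest peaks, the 10 tiles with the most early peaks (ties by peaks of the full list), the closest pair and the most isolated peak; all others were chosen after their values were seen. The peaks and measures were chosen with earlier results of these data known. No mm9 sequence or annotation was used, so genes, motifs and sequences are not analysed here.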

Additional observations from a re-analysis of the deposited data

How the results depend on the processing

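Early-listed peaks and later rows were compared in 35 ways under the alternatives, and the direction held in 34. The exception was median width with peaks within 1000 bp merged, where regions holding an early peak measured 176 bp and the others 126 bp, against 104 and 114 bp unmerged. There any early peak made a region early, which favours regions of more peaks and so wider ones. Merging also took the share with a neighbour within 10 kb to 80.8% (later rows 68.1%) and the median count within 50 kb to 8 (later rows 6). It took the share with an early neighbour within 10 kb to 12.9%. The same rule may favour regions in crowded places, so the merged comparisons are no separate check of crowding. The share with a neighbour was 64.2% within 2 kb (later rows 52.2%) and 99.3% within 50 kb (later rows 97.1%). In rows 1 to 1000 it was 91.5% (later rows 80.8%). The share with an early neighbour was 10.9% within 2 kb, 36.6% within 50 kb, 17.3% in rows 1 to 1000, 25.5% in rows 1 to 4000, 19.4% without peaks under 50 bp and 17.8% with overlapping peaks merged. The median count was 3 within 10 kb (later rows 2) and 81 within 500 kb (later rows 72). Tiles with 3 or more early peaks numbered 24 in rows 1 to 1000, 246 in rows 1 to 4000, 121 at 200 kb and 51 at 50 kb; 298 tiles held 2 or more and 23 held 4 or more. Another distance, tile size or minimum changes what is counted, and merging within 1000 bp changes what a region is. For the other moves the cause was not tested. The share with a peak within 150 bp, a measure added after seeing the data, was 1.59% with overlapping peaks merged (later rows 0.225%), 9.13% in rows 1 to 1000 and 5.94% in rows 1 to 4000. Merging overlaps and leaving out the chromosome 19 tile were also added after seeing the data. No paired analysis was possible because the list comes from 1 library. Sequence and gene context was not run, since no mm9 genome was used. Without scores or depth, a late place or an absent peak cannot be read as weak or missing binding.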
